A study of Mus musculus with 6 samples.

Results

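The genes followed here belong to the NF-κB system: the 5 subunit genes Nfkb1, Nfkb2, Rela, Relb and Rel, and 5 inhibitor and feedback genes, Nfkbia, Nfkbie, Tnfaip3, Bcl3 and Birc3. They were taken by symbol from a table of 40808 gene IDs, and 10 of 10 were found. The table holds 6 libraries of mRNA 3′ ends from mouse spleen, 3 labelled as not receiving Dox (replicates 4, 5 and 6) and 3 labelled as receiving it (replicates 10, 11 and 12). Per the labels, the RNA came from leukaemia cells in the spleens of mice transplanted with bone marrow, which applies to both groups. The labels do not spell out Dox and give no dose, duration, transgene, genotype, strain, age or sex, and nothing says whether each library is a separate mouse, so p-values measure the spread between these libraries, which may be technical. By its title, the study concerns how NOTCH is controlled through UVRAG, ITCH and ESCRT.

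NF-κB is a family of dimeric transcription factors. In the canonical arm, signals from TNF-family, interleukin-1, Toll-like and antigen receptors activate the IKK kinases, which mark the IκB inhibitors for destruction and free dimers such as p50 with RelA or c-Rel. In the non-canonical arm, receptors such as CD40 and the BAFF receptor stabilise the kinase NIK, and the Nfkb2 product p100 is processed to p52, which pairs with RelB. The dimers switch on genes for their own inhibitors, including Nfkbia and Tnfaip3, so the system restrains itself. In spleen the pathway is known for B cell survival and maturation and for innate immune responses.

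Sites for these factors were looked for in the promoters of the members, since several are described as targets of the family they belong to. RefSeq promoter sequences of assembly GRCm38.p6 matched 8 of the 10 members, and Nfkb1 and Relb were not matched. The 250 bases before each transcript start were searched on both strands for GGGNNNTTCC, a strict form of the κB motif. Nfkb2 and Tnfaip3 have several start sites, so the 8 genes had 11 promoters. The motif was found in 8 of these 11, against 4.65% of 32851 promoters of the same length. That background was counted by promoter and not by gene. The 8 belonged to 5 genes (Nfkb2, Rel, Nfkbia, Nfkbie and Tnfaip3). Rela, Bcl3 and Birc3 held none. The looser GGGNNNNNCC, which contains the first motif, was found in 11 of the 11 and in 45.8% of all promoters. A match describes letters in a window and not a bound site. The promoters of Nfkbia, the main feedback inhibitor (chr12:55492648-55492897, minus strand), and of Rel, the subunit with the largest change below (chr11:23770970-23771219, minus strand), are shown 5′ to 3′ on the strand of the gene, with the strict motif in capitals.
Nfkbia: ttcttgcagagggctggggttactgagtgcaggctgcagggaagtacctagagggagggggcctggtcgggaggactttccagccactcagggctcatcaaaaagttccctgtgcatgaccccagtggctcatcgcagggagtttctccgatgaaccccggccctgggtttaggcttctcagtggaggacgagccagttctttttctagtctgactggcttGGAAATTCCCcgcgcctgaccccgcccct
Rel: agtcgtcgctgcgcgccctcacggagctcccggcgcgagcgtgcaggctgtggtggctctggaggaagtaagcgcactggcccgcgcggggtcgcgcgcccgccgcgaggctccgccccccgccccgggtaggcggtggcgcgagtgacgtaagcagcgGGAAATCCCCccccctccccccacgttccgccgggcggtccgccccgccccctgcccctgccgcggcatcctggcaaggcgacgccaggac

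The sites of the other matched genes are shown as stretches of 30 bases with 10 bases on each side of the motif, to compare their cores. They lie at chr19:46304689-46304718 and chr19:46304716-46304745 (Nfkb2, plus strand), chr17:45555584-45555613 (Nfkbie, plus strand) and chr10:19015403-19015432 (Tnfaip3, minus strand). Alternative start sites of Nfkb2 and Tnfaip3 held further matches, which are not printed.
Nfkb2, site starting 38 bases before the start: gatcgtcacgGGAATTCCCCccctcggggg
Nfkb2, site starting 11 bases before the start: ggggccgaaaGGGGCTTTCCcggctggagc
Nfkbie: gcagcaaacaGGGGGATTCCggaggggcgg
Tnfaip3: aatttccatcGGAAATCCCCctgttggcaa
The cores of Rel and Tnfaip3 were the same 10 bases, GGAAATCCCC. As shown by the values that follow, these 2 genes differed between the groups in opposite directions. Whether motif matches go with differences between the groups was not tested.

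Total counts were 5541486 to 8725767 per library. At these depths, 3 counts amount to 0.344 to 0.541 CPM (counts scaled by the total of the library), a limit that covers counting error only. The libraries with Dox varied more: the biological coefficient of variation over all tested genes was 0.515 among them and 0.19 among those without Dox. The groups also differed in sex-linked expression. The Y-linked Ddx3y, Eif2s3y, Uty and Kdm5d had 545 to 801 summed counts in the libraries without Dox and 0 in each with Dox. Xist, a transcript made from the silenced X, had 193 to 324 counts without Dox and 3347 to 5669 with Dox. The libraries without Dox thus held both Y-linked RNA and Xist, and whether they mixed cells of both sexes was not tested. Dox and the sex of the cells cannot be told apart in any result given here. Levels below are CPM after composition scaling. The kit reads 1 end of each mRNA, so counts were not divided by length, and levels of different genes are compared on that scale.

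Markers of several cell types differed between the groups. In the counts of this paragraph, a marker rose or fell if its adjusted p was under 0.05 (edgeR). The labels name leukaemia cells but no lineage. In bulk samples, fewer cells of a type and less RNA per cell cannot be told apart. The summed level of 14 T cell markers was 2301 to 2450 CPM without Dox and 236 to 330 CPM with Dox, and 12 of 14 fell. B cell markers summed to 43 to 50.5 CPM without Dox and 2361 to 2511 CPM with Dox, and 12 of 12 rose. Neutrophil markers summed to 52.4 to 66 and 2235 to 2390 CPM (9 of 9 rose, with Ly6g at 0 counts in all libraries without Dox), and dendritic cell markers to 9.83 to 12.6 and 103 to 113 CPM (6 of 6 tested rose, with Cd209a at 0 with Dox). Macrophage and monocyte markers ran from 499 to 590 and from 681 to 1001 CPM, with 4 rising and 3 falling. Plasma cell markers summed to 283 to 310 and 249 to 264 CPM (2 of 5 rose and 2 fell), and the sums of stromal and endothelial markers overlapped, at 412 to 453 and 420 to 626 CPM (4 of 10 rose and 2 fell). NK cell markers summed to 3.39 to 7.09 and 17.8 to 27.8 CPM, with 2 of 3 tested rising. Of 9 erythroid markers 4 rose and 2 fell, and haemoglobin genes took 8.61% to 9.04% of counts without Dox and 14.1% to 15.9% with Dox. The summed immediate early and stress genes were lower with Dox, at 66.9 to 100.2 CPM against 202 to 205 CPM, with 3 of 6 tested falling and none rising. The part of these shifts in the values of Rel, Relb, Nfkb2, Birc3 and the other members was not tested.

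Of the 10 members, 9 passed the test for a difference with Dox (edgeR quasi-likelihood test, Benjamini-Hochberg adjusted p under 0.05 over 14110 genes). Higher levels were found for 7 members, and lower levels for 2, Nfkb1 and Tnfaip3. The background was high: 45.6% of all tested genes were called, 23.6% as higher and 22.1% as lower. The median log2 fold change of the 10 members was 1.58, where that of all tested genes was 0.07. All tested genes had quartiles of -0.95 and 1.16. Without regard to sign, the median log2 fold change was 1.71 for the members and 1.05 for all tested genes. In 9 of the 10 members no library of one group reached into the range of the other, as in 59.6% of all tested genes. Without replicate 5 or without replicate 6 of the group without Dox, 5 members were called in place of 9. Those 5 were Nfkb1, Nfkb2, Relb, Rel and Birc3, which passed the threshold in each of 15 alternative fits. Without replicate 4 of that group, 7 members were called. Calls among all genes were fewer in all 3 of these fits, with 4862 of 15576 without replicate 4, 4794 of 15676 without replicate 5 and 4968 of 15608 without replicate 6, against 6438 of 14110.

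**Figure D1:**
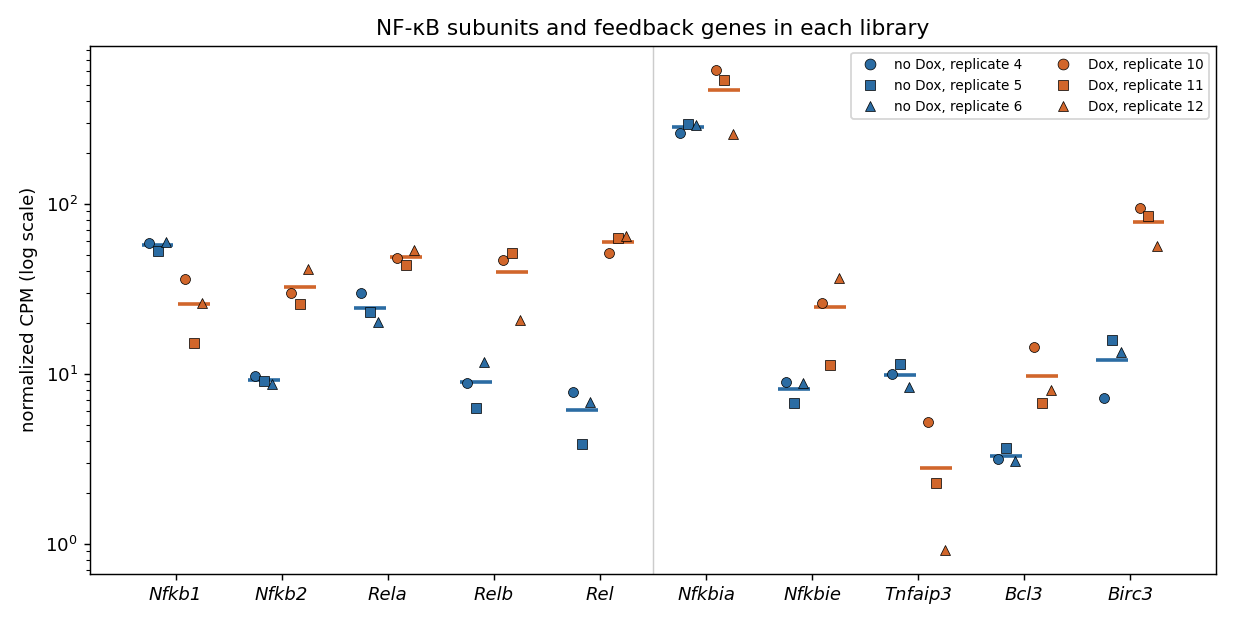
Normalized CPM (log axis) of each of the 10 genes in each library, with blue for no Dox, orange for Dox, marker shapes for replicates and a bar for the group mean. The groups are separate in each gene but Nfkbia, where replicate 12 with Dox (258 CPM) sits below the 3 libraries without Dox, and Nfkb1 and Tnfaip3 run opposite to the others.

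Rel, which encodes c-Rel, a subunit with a transactivation domain that is prominent in lymphocytes, rose most among the members. It lies on chromosome 11 (23736847 to 23770969, GRCm38, Entrez gene 19696). Its level was 7.76, 3.85 and 6.78 CPM without Dox and 51.2, 62.9 and 64.8 CPM with Dox. Each library with Dox was above each one without, and the underlying counts were 19 to 52 and 376 to 611. Rel thus rose by 3.26 ± 0.30 on the log2 scale (SE; edgeR, adjusted p = 2.43e-05). A rise at least this large was found in 4.79% of all tested genes.

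Relb, the partner of p52 in the non-canonical arm (chromosome 7, 19606217 to 19629438), measured 8.8, 6.28 and 11.7 CPM without Dox and 46.7, 51.2 and 20.8 CPM with Dox. The groups were separate, but replicate 12 with Dox stood well below replicates 10 and 11. Its log2 fold change was 2.14 ± 0.39 (SE; adjusted p = 0.00162, edgeR). Rela, whose product RelA is the main transactivating subunit of the canonical arm (chromosome 19, 5637442 to 5648134), measured 29.7, 23.1 and 20.2 CPM without Dox and 47.9, 43.5 and 53.8 CPM with Dox. It changed least among the 4 subunit genes that rose, with a log2 fold change of 0.99 ± 0.23 (SE; adjusted p = 0.00633, edgeR). This call was lost without replicate 5 (log2 fold change 0.88, adjusted p = 0.0579) or replicate 6 (0.78, adjusted p = 0.0552) of the group without Dox.

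The genes for the precursor proteins moved in opposite directions. Nfkb1, which encodes p105 and its product p50 (chromosome 3, 135584655 to 135691969), measured 59.1, 52.9 and 59.8 CPM without Dox and 36.1, 15.2 and 26.2 CPM with Dox. All 3 libraries with Dox were below the others, and they differed among themselves more than those without (25.8 ± 10.4 against 57.3 ± 3.8 CPM, SD, n = 3 each). In log2 terms Nfkb1 fell by 1.15 (SE 0.30; edgeR, adjusted p = 0.0103). Nfkb2, which encodes p100 and its product p52 (chromosome 19, 46300994 to 46312400), measured 9.7, 9.12 and 8.65 CPM without Dox and 29.9, 25.7 and 41.4 CPM with Dox. Nfkb2 rose by 1.82 ± 0.29 (SE; adjusted p = 0.00072, edgeR). Psd, a gene on the opposite strand that overlaps the 3′ end of Nfkb2, had 1 count over all 6 libraries.

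Because the subunit genes moved unequally, the make-up of the subunit mRNA differed between the groups. Summed over the 5 genes, the level was 106 ± 9.97 CPM (SD, n = 3) without Dox and 206 ± 6.7 CPM (SD, n = 3) with Dox. Nfkb1 supplied 51.4%, 55.5% and 55.9% of the summed subunit counts in the libraries without Dox and 17%, 7.67% and 12.7% in those with Dox. By group mean it went from the highest share of the 5 to the lowest, although it was lowest in replicate 11 alone, being above Nfkb2 (14.1%) in replicate 10 and above Relb (10.1%) in replicate 12. Rel went the other way, from the lowest mean share at 5.71% ± 1.46 to the highest at 29.1% ± 4.2 (SD, n = 3 each). The share of Rela stayed close, at 23% ± 3.7 and 23.5% ± 2.2 (SD, n = 3 each). The precursor genes Nfkb1 and Nfkb2 summed to 66.4 ± 3.8 and 58.2 ± 14.9 CPM in the groups without and with Dox, whereas the 3 genes with transactivation domains, Rela, Relb and Rel, summed to 39.4 ± 6.5 and 148 ± 9.2 CPM (SD, n = 3 each). These shares and sums are descriptions with no test.

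**Figure D2:**
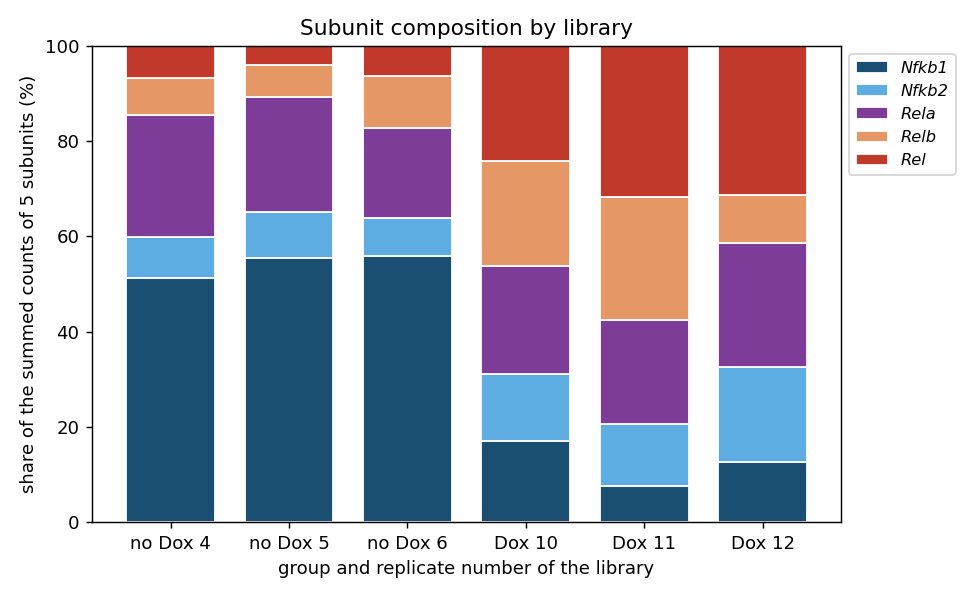
Share of each subunit gene in the summed counts of the 5 subunits, as stacked bars from 0 to 100% for each library. Nfkb1 fills 51.4% to 55.9% of the bars without Dox and 7.67% to 17% of those with Dox, and Rel 4.04% to 6.74% and 24.2% to 31.7%.

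Ratios between members within a library do not depend on how libraries are scaled. The log2 ratio of Nfkb2 to Nfkb1 was -2.60, -2.52 and -2.78 without Dox. It was -0.27, 0.75 and 0.66 with Dox, where Nfkb2 was near or above Nfkb1. The groups were separate, with a difference of 3.01. By a two-sided exact permutation test p was 0.1, the smallest that 3 against 3 allows, and 0.2 when adjusted over the 4 ratios compared. The log2 ratio of Rel to Rela went from -2.01 ± 0.50 to 0.30 ± 0.22 (SD, n = 3 each; exact permutation p = 0.1, adjusted 0.2), also with no overlap. The log2 ratio of Relb to Rela differed by 1.07, but the groups overlapped (SD 0.59 without and 0.86 with Dox, exact permutation p = 0.2, adjusted 0.267).

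Nfkbia encodes IκBα, the inhibitor that is degraded and resynthesised in each round of canonical signalling (chromosome 12, 55489409 to 55492647). It had the highest level of the members in both groups. It measured 259, 296 and 291 CPM without Dox and 612, 535 and 258 CPM with Dox. Replicates 10 and 11 with Dox lay above the group without Dox and replicate 12 lay below it. Its log2 fold change was 0.73 ± 0.27 (SE), which missed the threshold (adjusted p = 0.0519, edgeR). Without replicate 12 with Dox it was 1.01, with an adjusted p of 0.000124. DESeq2 called it with all libraries (0.71, adjusted p = 0.0246), as did 5 other alternatives, and the adjusted p over all alternatives ran from 0.000124 to 0.218. The log2 ratio of Nfkbia to Rela was 3.55 ± 0.38 and 3.18 ± 0.80 in the groups without and with Dox (SD, n = 3 each; permutation p = 0.5 by the exact test, adjusted 0.5), a difference of -0.36 that lay within the spread between libraries.

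Nfkbie encodes IκBε, a slower feedback inhibitor that is known to act on RelA and c-Rel (chromosome 17, 45555700 to 45563169). It measured 8.95, 6.69 and 8.82 CPM without Dox and 26.1, 11.3 and 36.8 CPM with Dox. The groups did not overlap, with replicate 11 the lowest with Dox. Nfkbie rose by 1.59 ± 0.43 (SE, adjusted p = 0.013, edgeR). The call was lost without replicate 5 (adjusted p = 0.0685) or replicate 6 (adjusted p = 0.0569) of the group without Dox. It was also lost by limma-voom (adjusted p = 0.0651), but not by limma-voom with group weights (adjusted p = 0.00881). Bcl3, an IκB-like nuclear cofactor of p50 and p52 (chromosome 7, 19808462 to 19822824), measured 3.13, 3.65 and 3.05 CPM without Dox and 14.4, 6.69 and 8.04 CPM with Dox. Its log2 fold change was 1.56 ± 0.52 (SE; adjusted p = 0.0314, edgeR). From 18 to 21 counts per library without Dox, this was a weak call. It was lost without any one of replicates 4, 5 and 6 (adjusted p 0.0993 to 0.114) and without replicate 10 with Dox (log2 fold change 1.14, adjusted p = 0.131). It was also lost by limma-voom (0.0688) and without a low-count filter (0.107). The call was kept by limma-voom with group weights (adjusted p = 0.0257). Gm16174, an antisense gene that overlaps Bcl3 away from its 3′ end, had 220 counts over all libraries, and the use of strand in counting is not given in the sources used here.

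Tnfaip3 encodes A20, a ubiquitin-editing enzyme that shuts off signalling upstream of IKK (chromosome 10, 19000910 to 19015410). It was one of the 2 members that fell. It measured 10, 11.3 and 8.31 CPM without Dox and 5.17, 2.26 and 0.922 CPM with Dox, from 49 to 67 counts and from 38, 22 and 7 counts. Every library with Dox was lower, and they spread over more than 5 times. In log2 terms Tnfaip3 fell by 1.82 (SE 0.65; edgeR, adjusted p = 0.0419). The fall kept its direction in each of the 14 alternatives that tested it, but it missed the threshold in 7 of them. Among these were the fits without replicate 4, 5 or 6 of the group without Dox and without replicate 11 or 12 with Dox, with adjusted p of 0.0504 to 0.134.

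Birc3 encodes cIAP2, a ubiquitin ligase that acts at TNF receptors and, with TRAF proteins, holds NIK low (chromosome 9, 7847468 to 7873205). It measured 7.16, 15.8 and 13.4 CPM without Dox and 93.8, 84.9 and 56 CPM with Dox. The lowest library with Dox was above the highest without by more than 3 times. Birc3 rose by 2.70 ± 0.33 (SE; adjusted p = 0.000132, edgeR), next to Rel among the members, and 7.72% of all tested genes rose at least as much. Its promoter window held the looser motif but none of the strict one.

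**Figure D3:**
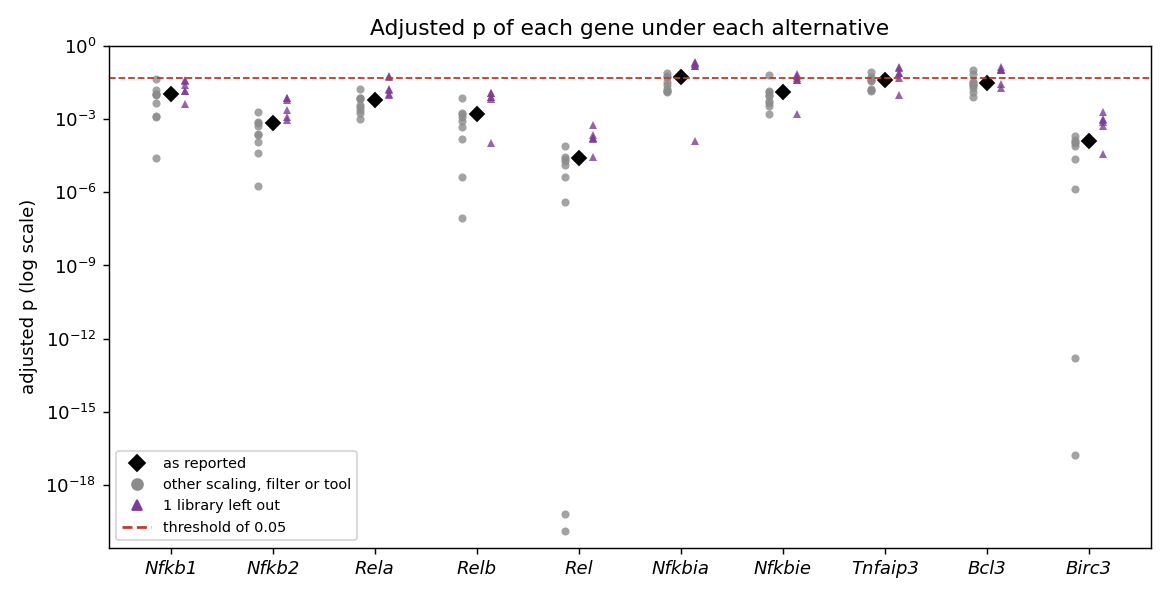
Adjusted p (log axis) of each gene as reported (black), under other scalings, filters and tools (grey) and with 1 library left out (purple), with the threshold of 0.05 dashed. Nfkb1, Nfkb2, Relb, Rel and Birc3 stay under the line throughout, and points of the other 5 fall on both sides.

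Within each group the order of the levels was read from the values of single libraries. Without Dox, Nfkbia, Nfkb1 and Rela were each above the next gene with no overlap, the run from Birc3 through Tnfaip3, Nfkb2, Relb and Nfkbie to Rel overlapped from neighbour to neighbour, and Bcl3 was lowest. With Dox, Nfkbia was again highest, and Birc3, Rel, Rela, Relb, Nfkb2, Nfkb1 and Nfkbie followed, each overlapping the next. Nfkbie also overlapped Bcl3, and Tnfaip3 was lowest with no overlap.

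Genes whose profile over the 6 libraries was nearest to each subunit were found by the root mean square difference of centred log2 CPM among 7055 genes of at least median expression. The 2 groups dominate such profiles, so nearness mainly describes a like difference between them. For Nfkb2 the nearest was Birc2 (difference 0.09), the gene for cIAP1 and a neighbour in function of Birc3, followed by Chd2 (0.10). For Nfkb1 these were Abi1 (0.13) and Txlng (0.14), for Rela Pfdn5 and Bdp1 (0.07 each), for Relb Gm22513 (0.14) and Slc29a3 (0.19), and for Rel Niban3 (0.12) and Rassf4 (0.18). No member was among the 2 nearest of any subunit. The nearest member was Nfkbie for Nfkb2 (0.39) and Birc3 for both Relb (0.60) and Rel (0.73).

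The other genes of the pathway were taken as 122 genes in 6 lists, of which 100 were tested. Levels with Dox were higher for 53 and lower for 6 at an adjusted p under 0.05 (edgeR), beside 23.6% and 22.1% of all tested genes. Their median log2 fold change was 0.83, between the all-gene quartiles of -0.95 and 1.16. Without regard to sign, their median was 1.35, against 1.05 for all tested genes. Without replicate 5 or 6 of the group without Dox, 45 were called in place of 59, and 49 without replicate 4, where calls among all genes were fewer in each of these fits. The medians of 4 lists depended on the filter: that of the ligands was 1.92 but 0.95 with no low-count filter, and that of the receptors 1.44 but 0.69 with at least 10 counts in each library. That of the other inhibitors and ubiquitin editors was 0.95 but 0.68 and 1.07 under those filters in turn, and that of the target genes 0.99 but 1.26 under the stricter one. The lists are given in order of signalling, from ligands to targets.

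Of 7 tested ligand genes, 5 rose and none fell. Lta, which encodes lymphotoxin-α, had 3, 3 and 1 counts without Dox and 77, 167 and 66 with Dox, a ratio of summed levels of 31.5 (95% counting interval 15.1 to 79). That interval pools the counts of each group and leaves out the spread between libraries. Il1b, the gene for interleukin-1β, rose from 1.91 ± 1.70 to 35.8 ± 4.5 CPM (SD, n = 3 each; log2 fold change 4.17 ± 0.52 (SE), adjusted p = 0.000148, edgeR). Tnf, named after its values were seen, had 9, 9 and 0 counts without Dox and 11, 37 and 12 with Dox and did not pass the threshold (adjusted p = 0.466). Among 19 receptor genes, 9 rose and 1 fell. Cd40, the B cell and myeloid receptor that feeds the non-canonical arm, went from 1.29 ± 1.16 to 26.5 ± 7.8 CPM (SD, n = 3 each; log2 fold change 4.34 ± 0.72 (SE), adjusted p = 0.00088, edgeR). Tlr7, a sensor of single-stranded RNA, rose by 3.78 ± 0.46 (SE; adjusted p = 0.000126, edgeR). Cd27, a costimulatory receptor of lymphocytes, was the one that fell, from 195 ± 30.1 to 15.9 ± 6.0 CPM (SD, n = 3 each; edgeR, adjusted p = 8.75e-06).

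Of 21 adaptor genes, 10 rose and 1 fell. Traf1 rose by 3.14 ± 0.63 (SE; adjusted p = 0.0026) and Nod1, a sensor of bacterial wall fragments, by 2.88 ± 0.46 (SE; adjusted p = 0.00068, edgeR). The gene that fell was Prkcq, which encodes a protein kinase of T cell receptor signalling (log2 fold change -1.73 ± 0.45 (SE), adjusted p = 0.0108, edgeR). Of Traf2 and Traf3, whose products restrain NIK together with cIAP1 and cIAP2, named after their values were seen, neither passed the threshold (log2 fold changes of -0.29 and 0.68, adjusted p of 0.762 and 0.108, edgeR).

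Of 11 kinase genes, 6 rose and 1 fell. Map3k8, which encodes the kinase TPL2 that is held by p105, went from 1.99 ± 0.27 to 46.1 ± 22.3 CPM (SD, n = 3 each), up by 4.52 ± 0.42 in log2 terms (SE; edgeR, adjusted p = 2.67e-05). Map3k14, the gene for NIK, measured 3.43, 1.62 and 2.71 CPM without Dox and 19.2, 26.7 and 37.7 CPM with Dox, a log2 fold change of 3.40 ± 0.42 (SE; adjusted p = 0.00014, edgeR). The subunits of the IKK complex did not move together. Chuk and Ikbkb, named after their values were seen, for the catalytic subunits IKKα and IKKβ, rose by 0.78 and 0.70 (adjusted p of 0.00907 and 0.0244), while Ikbkg, for the regulatory subunit NEMO, fell by 1.70 (SE 0.40; edgeR, adjusted p = 0.00651).

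Among 16 other inhibitors and ubiquitin editors, 7 rose and 2 fell. Nfkbid, which encodes a nuclear IκB, rose by 1.70 ± 0.43 (SE; adjusted p = 0.00939) and Birc2 by 1.69 ± 0.20 (SE; adjusted p = 0.000115, edgeR). Nfkbib, for the third classical inhibitor IκBβ, fell by 1.26 (SE 0.22; edgeR, adjusted p = 0.00126), so it ran against Nfkbie. Commd1, whose product promotes the removal of RelA, fell by 2.92 (SE 0.43, adjusted p = 0.000424, edgeR). Itch, a partner of A20 and a gene of the study's title, did not pass (-0.26, adjusted p = 0.372, edgeR), and was named after its values were seen.

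Of 38 target genes listed, 26 had enough counts to be tested, and 16 rose and 1 fell, with a median log2 fold change of 0.99. Cxcl13, a chemokine that draws B cells into follicles, went from 2.50 ± 0.34 to 115 ± 4.6 CPM (SD, n = 3 each; log2 fold change 5.52 ± 0.23 (SE), adjusted p = 5.37e-07, edgeR). Il12b had 0 counts in each library without Dox and 61, 126 and 30 with Dox, at least 16.1-fold higher against a floor of 3 counts per library. Sod2, the mitochondrial superoxide dismutase, fell from 97.7 ± 15 to 38 ± 13.5 CPM (SD, n = 3 each; edgeR, adjusted p = 0.00309). The 3 listed copies of Bcl2a1 are near-identical in sequence, and their counts depend on how shared reads were assigned.

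**Figure D4:**
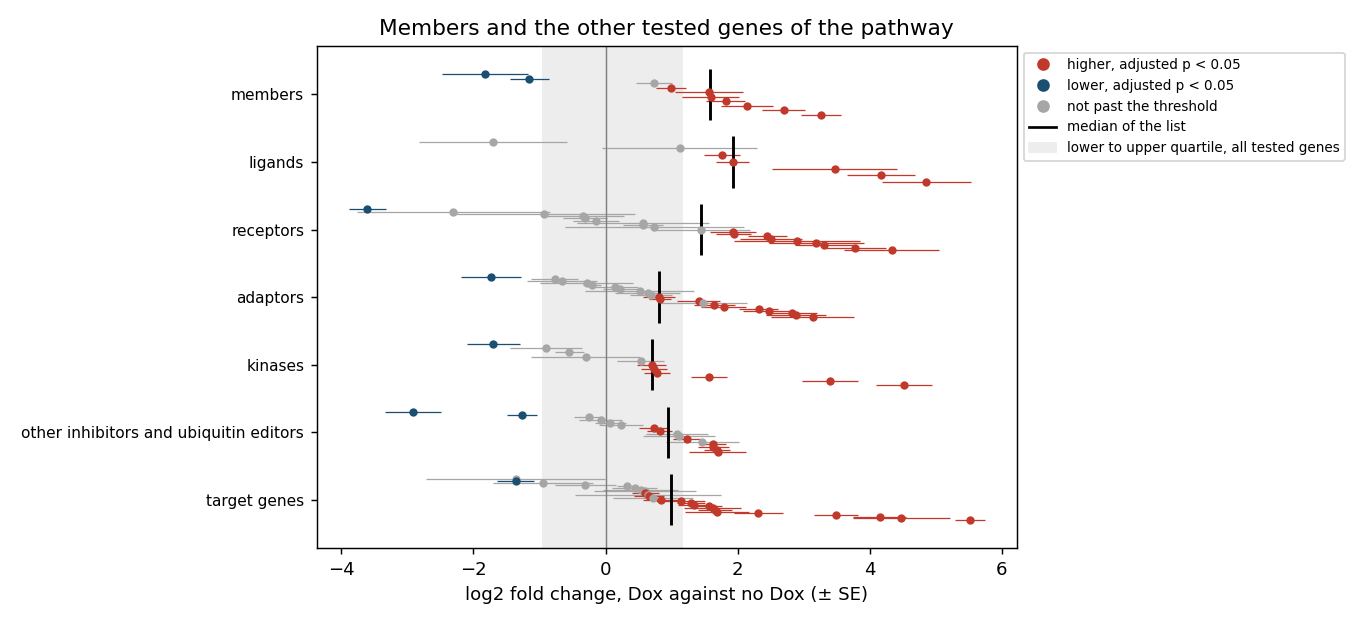
Log2 fold change with its SE for the 10 members and the tested genes of the 6 lists, in red where higher and blue where lower at an adjusted p under 0.05, with list medians in black and the range between the quartiles of all tested genes shaded. Medians run from 0.70 for the kinases to 1.92 for the ligands, the members are at 1.58, and Il12b, at 0 counts without Dox, is left out of the points.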

How the data were processed

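The authors deposited raw counts per Entrez gene ID for 6 libraries of mRNA 3′ ends (QuantSeq, per the labels' protocols). The submitters' processing notes name STAR, featureCounts and GRCm38. Their settings, the annotation and whether molecular identifiers were counted are not given in the sources used here. Symbols and gene positions came from RefSeq GRCm38.p6, strands and overlaps from GENCODE M21, and 96.5% of IDs had a symbol. Genes were kept by filterByExpr (minimum count 10, minimum total 15), scaled by TMM and tested with the quasi-likelihood F-test of edgeR 4.0.16 in R 4.3.3 with no covariate. SEs were derived from the fold change and F. The test was checked on simulated data. Alternatives used other scalings, filters and thresholds, DESeq2 1.42.0, limma-voom (limma 3.58.1) with and without group weights, and fits without single libraries. Named were the 10 members and, per pathway list, up to 2 called genes in each direction with the largest change and no overlap. Other genes are marked where named. The members and lists were chosen with earlier results of these data known.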

Additional observations from a re-analysis of the deposited data

How the results depend on the processing

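No paired analysis was possible because replicate numbers differ between the groups. All fitted members kept their direction in each alternative. Nfkb1, Nfkb2, Relb, Rel and Birc3 passed the threshold in all 15, and of 149 fits of single members 18 lost and 7 gained a call. At an adjusted p under 0.01, 5 members were called, 0 of them lower, and 2200 genes rather than 3324 were higher. One member was called lower with upper-quartile factors, with library size only and with a filter of 10 counts in each library; the last does not test Tnfaip3. Scaling by library size alone shifted the all-gene median by 0.31 (log2) and the higher share of calls from 51.6% to 64.3%. With 1 library left out, 5 to 9 members were called, 4 to 8 higher and 1 to 2 lower. The log2 ratio of Nfkbia to Rela, Dox against no Dox, ran from -0.61 to 0.10, the reversed value being that without replicate 12 with Dox; the cause was not tested. The medians of the 6 pathway lists moved beyond the spread in 17 of 90 fits, none with a change of sign. Without Dox, Bcl3 had 18 to 21 counts and Tnfaip3 49 to 67.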
